A study of Mus musculus with 6 samples.

Results

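The genes described here are 7 inhibitory receptors of myeloid cells (Sirpa, Pilra, Lilrb4a, Pirb, Siglece, Lair1 and Fcgr2b) and the 3 phosphatases such receptors recruit (Ptpn6, Ptpn11 and Inpp5d). They were listed by name and matched to Ensembl IDs, and all 10 were found among the 55421 gene IDs of the raw count table. All 10 were also among the 14469 genes with enough counts to be tested. RNA-seq was performed on tumor-associated macrophages (TAMs) of mice whose Pdcd1 gene, which encodes PD-1, was floxed. There were 3 libraries from Pdcd1f/f mice, which lack Cre, and 3 from Pdcd1f/fLysMcre mice, in which Cre is driven by the lysozyme M locus and acts in macrophages, monocytes and neutrophils. The mice carried implanted tumor cells that the labels call M17 (MC17-51 fibrosarcoma in the study's methods) and were 8 to 12 weeks old by those methods. TAMs were taken on day 15 and sorted as live CD45+CD11b+F4/80+Ly6G- cells. The labels do not say that the libraries of a genotype came from separate mice, so p-values measure only the spread between these libraries. The comparison asks whether other inhibitory receptors that share the phosphatases of PD-1 changed when Pdcd1 was targeted in myeloid cells.

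An immunoreceptor tyrosine-based inhibitory motif (ITIM) is a short stretch around a tyrosine in the cytoplasmic tail of a receptor. Once Src family kinases phosphorylate that tyrosine, it binds the SH2 domains of the tyrosine phosphatases SHP-1 (Ptpn6) and SHP-2 (Ptpn11) or of the lipid phosphatase SHIP-1 (Inpp5d), which then act against kinase signaling at the membrane. PD-1 carries an ITIM and a related switch motif and signals mainly through SHP-2, so it draws on the same phosphatases as the other receptors of macrophages.

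The sequences that define this group were read from GENCODE M21 transcripts (GRCm38) to show what the receptors have in common and where the phosphatases differ. The coding sequence after the last hydrophobic window of each receptor was searched for codons of serine, threonine, isoleucine, valine or leucine, any residue, tyrosine, any pair of residues, and isoleucine, leucine or valine. All 7 receptors held such stretches, 16 in total: 4 in Sirpa, 3 in Pirb, 2 each in Pilra, Lilrb4a, Siglece and Lair1, and 1 in Fcgr2b. One stretch of each receptor, and both of Siglece, are given 5′ to 3′ on the coding strand, with the tyrosine codon in capitals.
Sirpa, ITIM 1, chr2:129629954-129629971 (+), exon 8 of 8: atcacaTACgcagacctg
Pilra, ITIM 1, chr5:137823571-137823588 (-), exon 7 of 7: atcgtgTATgcttccatc
Lilrb4a, ITIM 2, chr10:51496194-51496211 (+), exon 9 of 9: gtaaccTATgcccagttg
Pirb, ITIM 2, chr7:3712786-3712803 (-), exon 15 of 15: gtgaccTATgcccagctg
Lair1, ITIM 1, chr7:4009790-4009807 (-), exon 8 of 8: gtgacgTATatccagctg
Fcgr2b, ITIM 1, chr1:170961071-170961088 (-), exon 8 of 8: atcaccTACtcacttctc
Siglece, ITIM 1, chr7:43651585-43651602 (-), exon 7 of 7: atacatTATgcgaccctc
Siglece, ITIM 2, chr7:43651516-43651533 (-), exon 7 of 7: acggagTACtcagagata
The tyrosine codon was TAT in 11 stretches and TAC in 5, and 14 of the 16 lay in the last exon of the transcript. The closest pair, Lilrb4a ITIM 2 and Pirb ITIM 2, differed at 2 of 18 bases, and Pirb ITIM 2 and Lair1 ITIM 1 at 3 of 18. The pattern allows threonine in its first position, so stretches labelled ITIM here can include switch motifs, which were not told apart. A match to these codons is a description of the letters and not evidence that the tyrosine was phosphorylated in these cells.

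The phosphatases were searched for the codons of the tyrosine phosphatase signature (histidine, cysteine, any pair, glycine, any pair, arginine), whose cysteine carries out catalysis. It was found in Ptpn6 and Ptpn11 and is given with the cysteine codon in capitals. The stretch that leads to the phosphotyrosine-binding arginine of an SH2 domain (any residue, serine or threonine, phenylalanine, leucine, valine or alanine, arginine) was found in all 3, and the first of each is given with the arginine codon in capitals.
Ptpn6, signature, exons 11 to 12 of 16: catTGCagcgctggcatcggccgc
Ptpn11, signature, exons 11 to 12 of 16: cacTGCagcgctgggattggccgg
Ptpn6, first SH2 domain, chr6:124732779-124732796 (-), exon 2 of 16: gggagcttcctggctCGG
Ptpn11, first SH2 domain, chr5:121172022-121172039 (-), exon 2 of 16: ggcagttttttagcaAGG
Inpp5d, SH2 domain, chr1:87620573-87620590 (+), exon 1 of 27: gggagcttccttgtgCGT
The 2 signatures differed at 4 of 24 bases and crossed the junction of the same exons in both genes. Ptpn6 and Ptpn11 each held 2 SH2 stretches and Inpp5d held 1.

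The libraries held 41833823 to 51417209 counts. Pdcd1 itself was barely counted, with 10, 12 and 15 counts without Cre and 7, 16 and 11 with it (log2 fold change −0.25, 95% interval −1.24 to 0.74), and a count over a whole gene cannot tell whether its floxed exons were present. Lyz2, the gene that holds the Cre insertion, had 189889 to 242873 counts without Cre and 418 to 503 with it. The libraries thus matched the Cre part of their labels. Cre and the low Lyz2 count were present only in the Pdcd1f/fLysMcre libraries. Their part in any difference between genotypes cannot be told apart from that of Pdcd1 targeting. Across 11050 genes, which are not independent, the deviation of a library from its genotype mean followed GC content with a Spearman rho of −0.740 in Pdcd1f/f replicate 1 and −0.672 in Pdcd1f/fLysMcre replicate 2, against 0.180 to 0.686 in the other libraries. These libraries are said here to stand apart because of the sign of rho. Deviations from a genotype mean offset each other, and Pdcd1f/fLysMcre replicate 3 deviated about as far the other way (0.685). Calls of members and lists are given with and without the libraries that stood apart. The normalized counts of 4 Y-linked genes summed to 1545 to 1914 in Pdcd1f/f and 6267 to 7233 in Pdcd1f/fLysMcre libraries, and Xist ranged from 17318 to 26511 and from 8530 to 13137, so the sex of the mice cannot be told apart from genotype.

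The members spanned a wide range of transcript levels. Levels between genes were compared as CPM per kilobase of exon, computed here from the raw counts. CPM here and below are counts relative to a library's total over the genes tested, scaled by its TMM factor from edgeR. By its mean over all 6 libraries, Sirpa stood at the 98.8th percentile of all genes tested. In Pdcd1f/f TAMs it had the highest level of the members, 249.5 ± 13.6 (SD, n = 3). Fcgr2b followed at 198.8 ± 4.84, and Siglece was lowest at 5.01 ± 0.648 (SD, n = 3 each), 49.8-fold below Sirpa.

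Between them lay Lilrb4a at 94.4 ± 11.7, Ptpn6 at 89.5 ± 9.76, Pirb at 75.3 ± 3.08, Inpp5d at 43.4 ± 2.30, Pilra at 27.5 ± 0.263, Lair1 at 14.8 ± 0.612 and Ptpn11 at 13.3 ± 0.320 on the same scale (SD, n = 3 each). Lilrb4a and Ptpn6 overlapped between libraries, and no other neighbors in this order did. The transcript of SHP-1 was thus 6.75-fold as abundant per length as that of SHP-2 and 2.06-fold as abundant as that of SHIP-1. In Pdcd1f/fLysMcre TAMs the order was the same except that Ptpn11, at 13.3 ± 0.250, came before Lair1, at 12.6 ± 0.922 (SD, n = 3 each), and these overlapped.

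**Figure D1:**
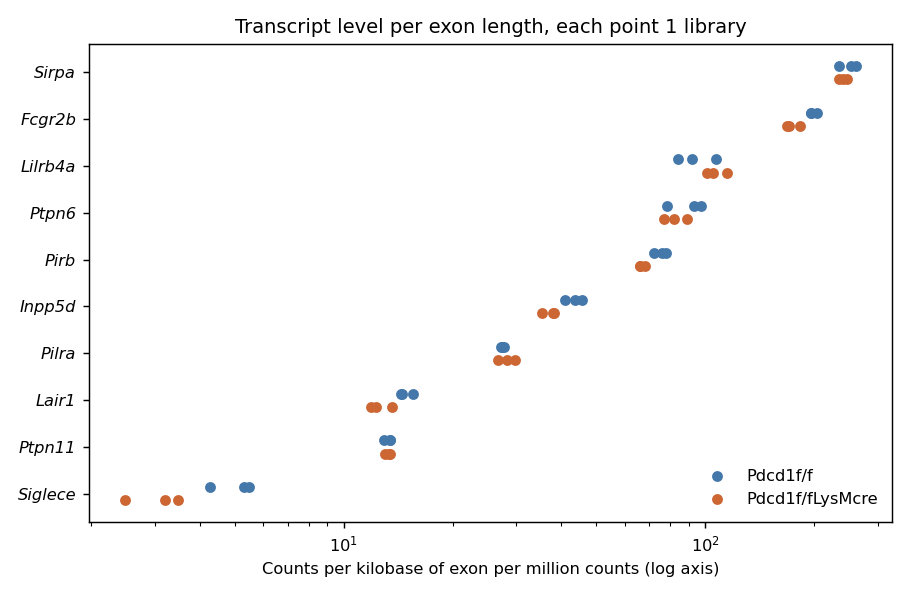
Transcript level of the 10 members in CPM per kilobase of exon on a log axis, with 1 point for each of 3 Pdcd1f/f and 3 Pdcd1f/fLysMcre libraries. Sirpa and Fcgr2b lie above 160 in every library, and Siglece lies below 6.

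Of the 10 members, 1 was past the threshold, a Benjamini-Hochberg adjusted p under 0.05 over all genes tested in the quasi-likelihood test of edgeR. This was Siglece, which was lower in Pdcd1f/fLysMcre TAMs. Across all genes tested 5.43% were past the threshold, 3.01% lower and 2.42% higher. In 5 of the 10 members (Pirb, Siglece, Lair1, Fcgr2b and Inpp5d) every Pdcd1f/fLysMcre library lay below every Pdcd1f/f library, against 12.8% of all genes tested, and in no member did they all lie above, against 14.7%. The median log2 fold change of the members was −0.14, within a range from −0.71 to 0.18, and that of all genes tested was −0.00. As these are bulk libraries, fewer cells expressing a gene and less RNA of it per cell cannot be told apart.

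**Figure D2:**
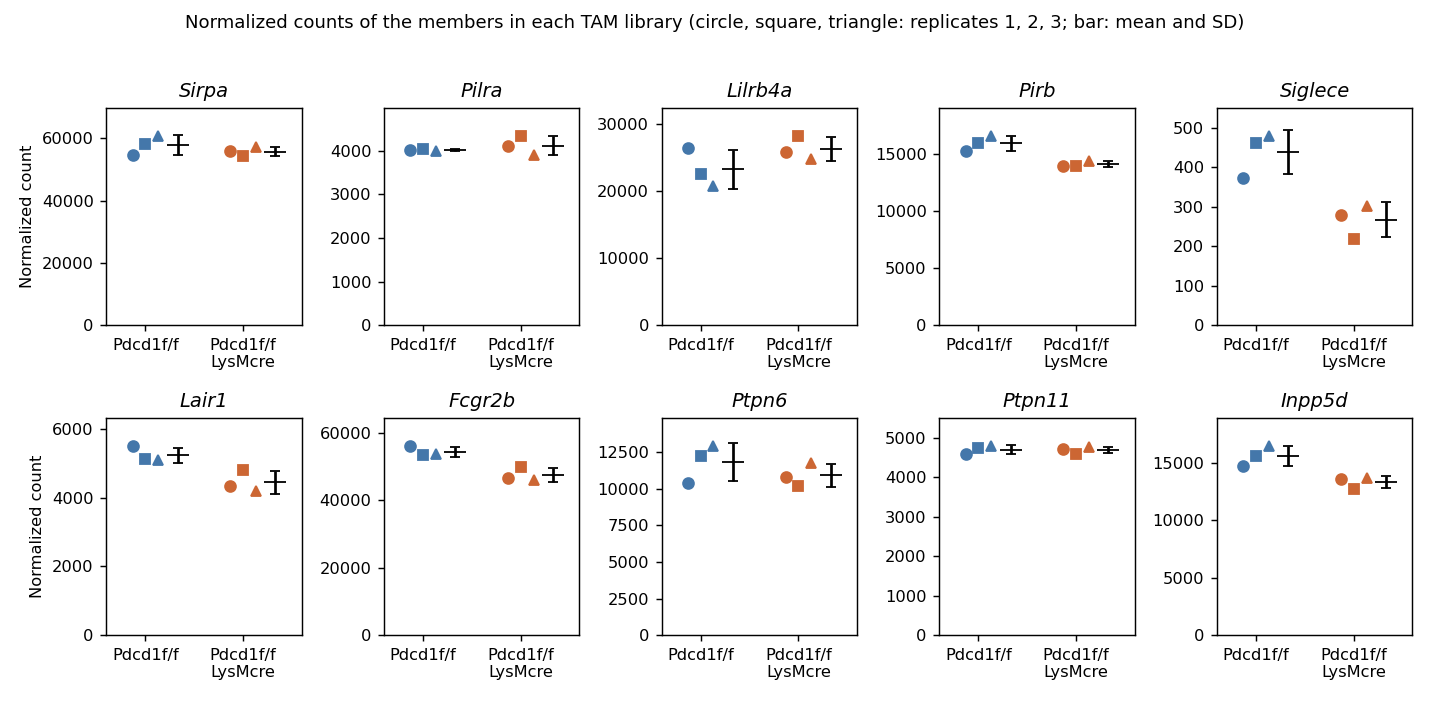
Normalized counts of each member in each library, with circles, squares and triangles for replicates 1, 2 and 3 and bars for the mean and SD of 3 libraries. The genotypes are separated for Pirb, Siglece, Lair1, Fcgr2b and Inpp5d and overlap for the other 5 genes.

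Siglece encodes Siglec-E, a receptor of macrophages and neutrophils for sialic acid on glycans. Its locus spans 43651070 to 43660161 on the minus strand of chromosome 7 (GRCm38, as all positions here), in a cluster of Siglec genes with Cd33. Replicates 1, 2 and 3 had 374, 460 and 479 normalized counts without Cre and 279, 217 and 303 with it. All 3 libraries with Cre were below all 3 without it, and Pdcd1f/f replicate 1 was the lowest control. The mean fell from 438 ± 56.0 to 266 ± 44.3 (SD, n = 3 each). It fell by 0.71 on the log2 scale (standard error 0.15, 95% interval −1.04 to −0.39), or by 38.9%, with an adjusted p of 0.0203 from edgeR.

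The raw counts behind the Siglece values were 403, 412 and 437 without Cre and 302, 228 and 308 with it, the fewest of any member. The call of Siglece depended on single libraries. It was kept without Pdcd1f/f replicate 1 (adjusted p = 0.00200 from edgeR) and without Pdcd1f/fLysMcre replicate 3 (0.0236). It was lost without Pdcd1f/f replicate 2 (0.119), Pdcd1f/f replicate 3 (0.0747), Pdcd1f/fLysMcre replicate 1 (0.0873) or Pdcd1f/fLysMcre replicate 2 (0.0683). The log2 fold change stayed between −0.82 and −0.58 in these 6 fits. A test for a fold change above 1.2 also did not call it (adjusted p = 0.121 from edgeR), and over all 17 alternatives the adjusted p ranged from 3.5e-06 to 0.121.

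Lair1 encodes a receptor for collagens and C1q and lies on chromosome 7 from 4003402 to 4063204 on the minus strand. It had 5483, 5106 and 5083 normalized counts without Cre and 4336, 4808 and 4179 with it. The groups did not overlap, and the closest libraries were Pdcd1f/f replicate 3 and Pdcd1f/fLysMcre replicate 2. The means were 5224 ± 225 and 4441 ± 327 (SD, n = 3 each), which gave a log2 fold change of −0.23 (95% interval −0.39 to −0.08) that was not past the threshold (adjusted p = 0.0811 from edgeR).

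Pirb encodes the paired immunoglobulin-like receptor B, which binds MHC class I, and lies on chromosome 7 from 3711409 to 3720391 on the minus strand, in the same receptor cluster as Lair1. Its libraries had 15234, 15915 and 16529 normalized counts without Cre and 13954, 13917 and 14357 with it. The 2 groups were separated, with a narrow spread among the libraries with Cre. Its log2 fold change was −0.17 (95% interval −0.30 to −0.04; adjusted p = 0.112 from edgeR).

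Fcgr2b encodes the inhibitory receptor for the Fc part of IgG, which acts mainly through SHIP-1, and lies on chromosome 1 from 170958617 to 170976547 on the minus strand. Its libraries had 56005, 53445 and 53625 normalized counts without Cre and 46681, 49967 and 45999 with it. Every library with Cre was below every control, and Pdcd1f/f replicate 1 and Pdcd1f/fLysMcre replicate 2, the libraries that stood apart, were the highest of their groups. The log2 fold change was −0.19 (95% interval −0.32 to −0.06; adjusted p = 0.0890 from edgeR).

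Among the receptors whose genotypes overlapped, Sirpa, which encodes the receptor for the "don't eat me" ligand CD47, had 54530, 58321 and 60712 normalized counts without Cre and 55865, 54344 and 57108 with it. It lies on chromosome 2 from 129592835 to 129632228 on the plus strand. The lowest control lay between the libraries with Cre. For Sirpa it was −0.05 on the log2 scale (adjusted p = 0.655 from edgeR), with a 95% interval from −0.19 to 0.09.

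Pilra, on chromosome 5 from 137821952 to 137836281 on the minus strand, encodes the inhibitory one of a pair of receptors for sialylated proteins. It had 4015, 4037 and 3991 normalized counts without Cre and 4115, 4338 and 3900 with it. The controls lay within the range of the libraries with Cre. The log2 fold change was 0.04 (95% interval −0.10 to 0.18; adjusted p = 0.745 from edgeR), and 468 exon bases of Pilra (15.1%) overlap Zcwpw1 on the other strand.

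Lilrb4a encodes gp49B, an inhibitory receptor of myeloid and mast cells, and lies on chromosome 10 from 51490956 to 51496611 on the plus strand. It had 26488, 22630 and 20790 normalized counts without Cre and 25839, 28237 and 24833 with it. The high control was Pdcd1f/f replicate 1, which exceeded 2 of the 3 libraries with Cre. The estimate was 0.18 on the log2 scale (95% interval −0.02 to 0.38; adjusted p = 0.258 from edgeR), and without Pdcd1f/f replicate 1 it was 0.27 and past the threshold (adjusted p = 0.0186 from edgeR). Without Pdcd1f/f replicate 3 the estimate was 0.10, and with GC and length offsets 0.08. Over 17 alternatives its adjusted p lay between 0.00369 and 0.999987. Lilrb4a shares 1846 exon bases (35.3%) with Gm49339 on the same strand, so its count is uncertain where reads fell in both.

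Inpp5d, which encodes SHIP-1, lies on chromosome 1 from 87620312 to 87720507 on the plus strand and was the phosphatase with separated genotypes. Its libraries had 14741, 15560 and 16394 normalized counts without Cre and 13576, 12716 and 13675 with it. Every library with Cre was below the lowest control, Pdcd1f/f replicate 1. The means were 15565 ± 826 and 13322 ± 527 (SD, n = 3 each), which gave a log2 fold change of −0.22 (95% interval −0.37 to −0.08) that was not past the threshold (adjusted p = 0.0718 from edgeR). Inpp5d lies 6.32 Mb from the floxed Pdcd1 gene. Within 10 Mb of Pdcd1, 5 of 102 genes tested were higher and 4 lower with a median log2 fold change of −0.01. Of 19 genes tested within 1 Mb of Inpp5d 1 was higher and 0 lower. The shares of all genes tested were 2.42% higher and 3.01% lower.

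Ptpn6, which encodes SHP-1, lies on chromosome 6 from 124720707 to 124738714 on the minus strand. It had 10414, 12234 and 12886 normalized counts without Cre and 10812, 10166 and 11740 with it. The lowest values in either genotype were those of the libraries that stood apart, and the genotypes overlapped. The log2 fold change was −0.12 (95% interval −0.31 to 0.08; adjusted p = 0.441 from edgeR). Without Pdcd1f/f replicate 1 it was −0.21 (adjusted p = 0.0510 from edgeR), without Pdcd1f/f replicate 3 −0.05, and with GC and length offsets 0.01. Without both libraries that stood apart it was −0.16 and past the threshold (adjusted p = 0.0318 from edgeR).

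Ptpn11, which encodes SHP-2, the phosphatase through which PD-1 mainly signals, lies on chromosome 5 from 121130533 to 121191397 on the minus strand. It had 4575, 4735 and 4775 normalized counts without Cre and 4711, 4590 and 4755 with it. The 6 values interleaved, and the SD within a genotype was 106 and 85.7. The fitted level with Cre was 0.999 times that without it, with a 95% interval of the log2 fold change from −0.13 to 0.13 (adjusted p = 0.994 from edgeR).

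**Figure D3:**
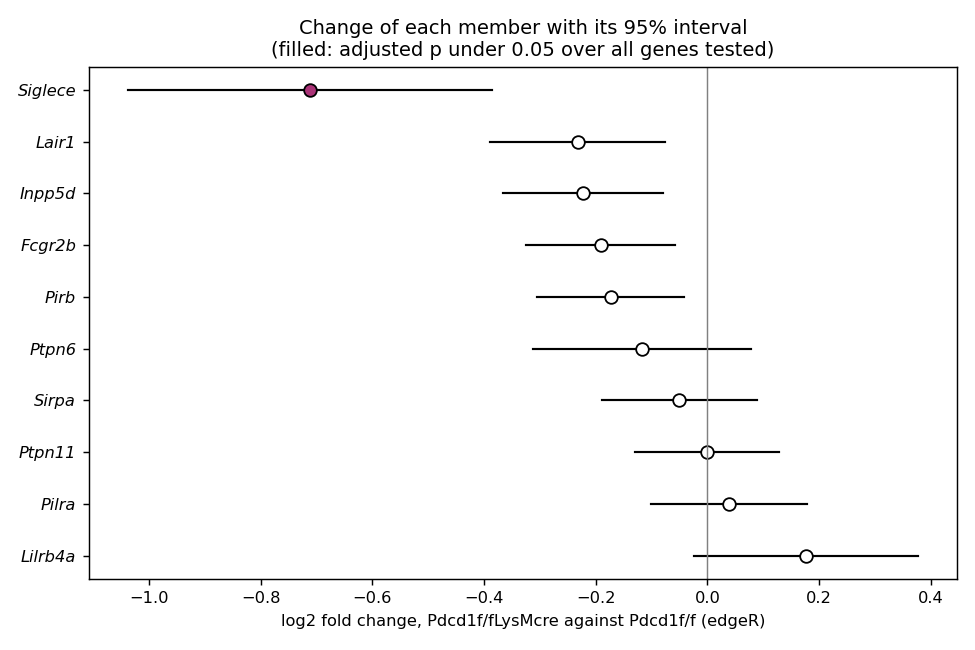
Log2 fold change of each member in Pdcd1f/fLysMcre against Pdcd1f/f TAMs, with points for the edgeR estimate, lines for its 95% interval and a filled point for an adjusted p under 0.05 over all genes tested. The interval lies wholly below 0 for Siglece, Lair1, Inpp5d, Fcgr2b and Pirb, and only Siglece is past the threshold.

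The number of members called differed with the filter on low counts, the tool, the libraries and the GC and length offsets. No member was called in opposite directions, although Ptpn6, called lower in 1 alternative, had an estimate of 0.01 with GC and length offsets. DESeq2's Wald test called 4 members lower, Siglece, Lair1, Fcgr2b and Inpp5d, against 12% of all genes it gave an adjusted p. When edgeR was given GC and length offsets per library it called 5, these and Pirb, against 18.8% of all genes. Without Pdcd1f/f replicate 1 and Pdcd1f/fLysMcre replicate 2 it called 7, adding Ptpn6 as lower (log2 fold change −0.16) and Lilrb4a as higher (0.22), against 26.2% of all genes. Without Pdcd1f/f replicate 1 alone it called 4, Siglece, Inpp5d (−0.27) and Pirb (−0.21) as lower and Lilrb4a (0.27) as higher, against 21.6% of all genes. Sirpa, Pilra and Ptpn11 were past the threshold in 0 of 17 alternatives. The sign of the estimate was kept in 17 of 17 alternatives for Siglece, Lair1, Inpp5d, Fcgr2b, Pirb and Lilrb4a, in 16 for Pilra, in 15 each for Sirpa and Ptpn6 and in 12 for Ptpn11.

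**Figure D4:**
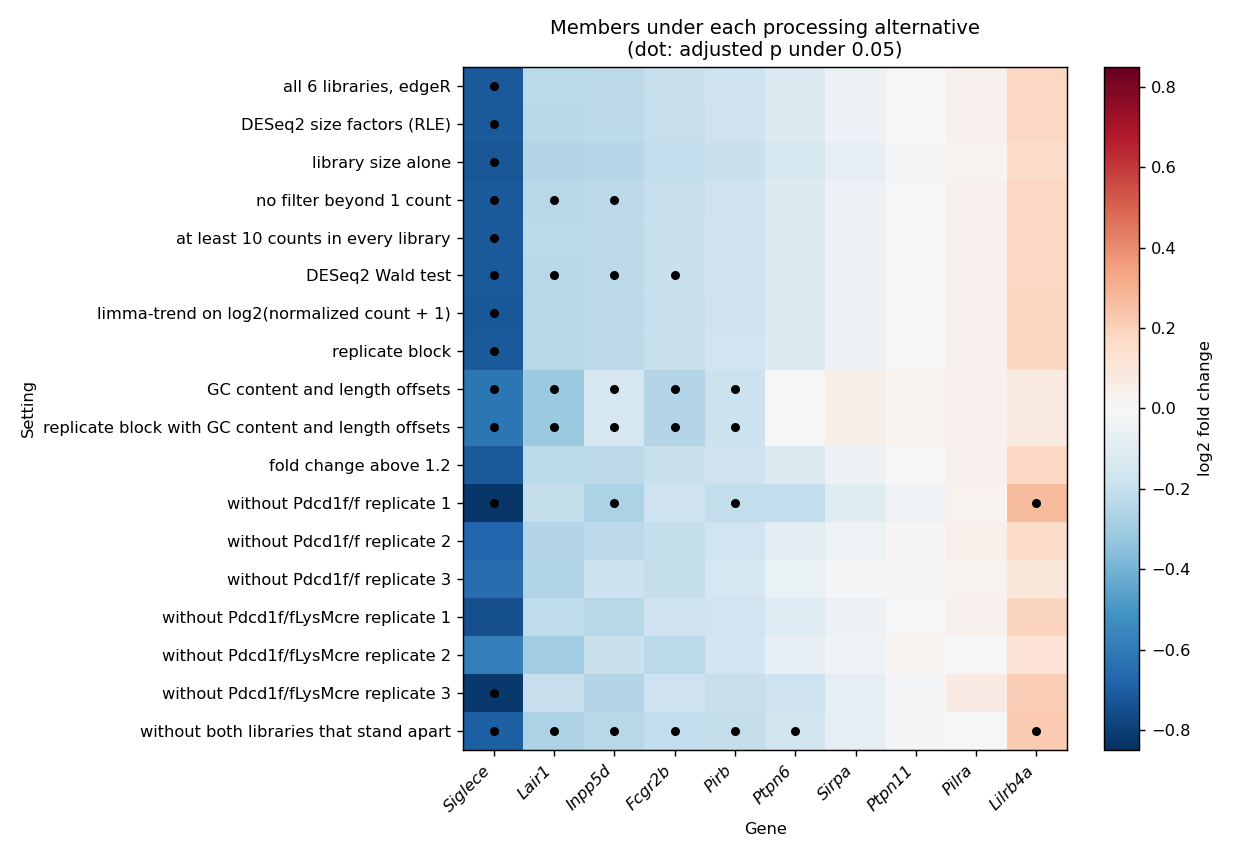
Log2 fold change of each member (columns) under each processing alternative (rows), with blue for lower and red for higher in Pdcd1f/fLysMcre TAMs and a dot for an adjusted p under 0.05. Siglece is dark blue in every row, and dots for the other genes are in the rows with another filter or tool, the offsets or fewer libraries.

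Several members have an activating partner with a similar extracellular part, and their counts were compared within each library, where the scaling cancels. Reads that matched both genes of such a pair could have been split or dropped in counting. With 3 libraries against 3, the two-sided exact permutation test cannot give a p below 0.1, and 5 ratios were compared, so none could pass. Fcgr2b to Fcgr3, the activating receptor for IgG, was 2.34, 2.18 and 2.22 without Cre and 2.67, 2.81 and 2.60 with it. The ratio was higher in 3 of 3 libraries with Cre (log2 difference 0.26, exact permutation p = 0.1), with log2 fold changes of −0.19 for Fcgr2b and −0.45 for Fcgr3. With GC and length offsets the log2 difference was 0.17.

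Pirb to Pira2 was 14.1, 12.6 and 11.5 without Cre and 10.3, 10.6 and 8.98 with it, lower in 3 of 3 libraries (log2 difference −0.35, exact permutation p = 0.1). Pira2 was the one Pira gene with a matched symbol, and reads of Pirb and the near-identical Pira genes could have been split in counting. The ratio of Sirpa to its activating relatives Sirpb1a, Sirpb1b and Sirpb1c together (log2 difference 0.09, exact permutation p = 0.3), of Pilra to Pilrb1 (−0.14, exact permutation p = 0.4) and of Ptpn6 to Ptpn11 (−0.11, exact permutation p = 0.3) overlapped between genotypes. With GC and length offsets these differences were 0.29, −0.16 and −0.02. For Ptpn6 to Ptpn11 the ratios with Cre were 2.29, 2.21 and 2.47, and the control of replicate 1 (2.28) lay among them.

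**Figure D5:**
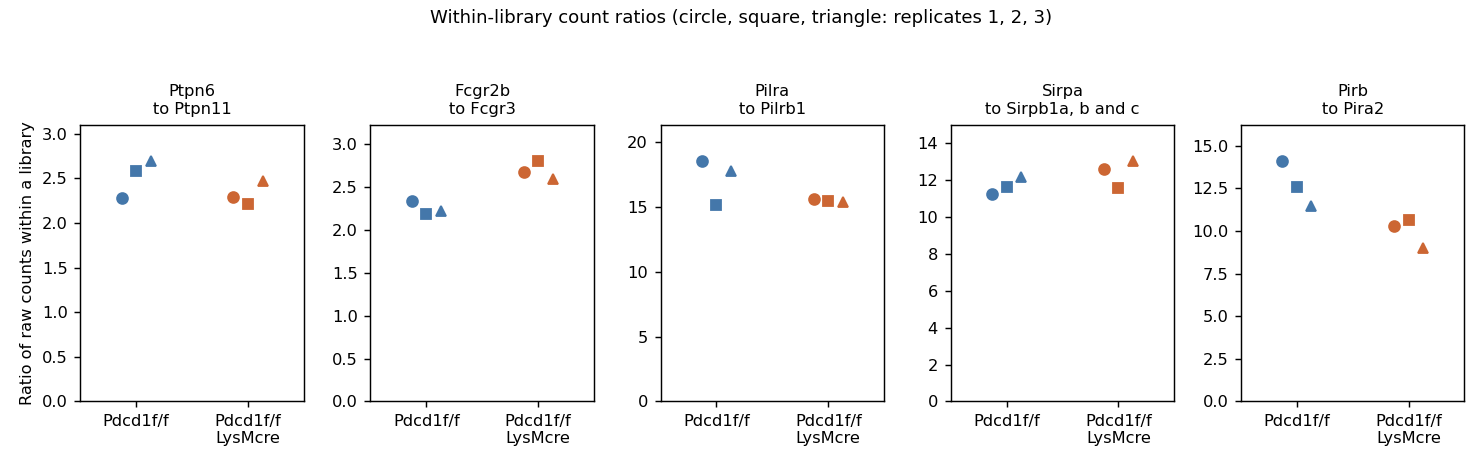
Ratio of raw counts within each library for 5 pairs of genes, with 1 symbol per library (circle, square and triangle for replicates 1, 2 and 3) and axes from 0. The genotypes are separated for Fcgr2b to Fcgr3 and for Pirb to Pira2 and overlap for the other 3 pairs.

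The genes around the members in the pathway were described from lists chosen by function. Of 90 other listed genes tested, 6 were higher and 14 lower, against 2.42% and 3.01% of all genes tested, and the counts of each list stand against the same shares. Of the 20, 8 were past the threshold in each of the 6 leave-one-out fits, and all 20 without both libraries that stood apart, where 26.2% of all genes were.

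Other ITIM receptors of leukocytes changed in both directions. Of 17 tested, 5 were lower and 2 higher, with a median log2 fold change of −0.15. Pecam1, an adhesion receptor that binds SHP-2, had 1082 ± 47.4 normalized counts without Cre and 702 ± 62.4 with it (SD, n = 3 each) and fell by 0.62 on the log2 scale (adjusted p = 0.00340 from edgeR). Cd22, a Siglec best known from B cells, fell by 0.51 (adjusted p = 0.00842), Cd300a by 0.50 (0.00277), Cd300lf by 0.42 (0.00528) and Milr1, also called allergin, by 0.30 (0.0340) on the log2 scale in the same test. Ceacam1 had 385 ± 8.35 normalized counts without Cre and 580 ± 39.1 with it (SD, n = 3 each) and rose by 0.59 on the log2 scale (adjusted p = 0.00561 from edgeR). Cd5, a T cell receptor regulator, rose by 1.01 (adjusted p = 0.0331 from edgeR) from 35.2, 41.3 and 51.5 to 105, 81.9 and 70.8 normalized counts.

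Pecam1, Cd300a and Ceacam1 were past the threshold in each leave-one-out fit, Cd22 and Cd300lf in 4 of 6, Cd5 in 2 and Milr1 in 1. The receptors with the most counts, Clec12a (log2 fold change 0.26, adjusted p = 0.135 from edgeR) and Clec4a2 (−0.03, adjusted p = 0.832), were not past it. With the offsets both were called, and Clec12a also without both libraries that stood apart. In either fit 7 of the 17 were lower and 3 higher, against 18.8% and 26.2% of all genes called.

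Among the activating partners and their ITAM adaptors, 4 of 18 tested were lower and 1 higher (median log2 fold change −0.05). Fcgr3 had 24209 ± 286 normalized counts without Cre and 17654 ± 164 with it (SD, n = 3 each). It fell by 0.45 on the log2 scale (adjusted p = 0.00137 from edgeR) and Fcgr4, another activating receptor for IgG, by 0.39 (adjusted p = 0.00488), both in each leave-one-out fit. Sirpb1a fell by 0.36 (adjusted p = 0.0224 from edgeR) and Tyrobp, the adaptor DAP12, by 0.33 (0.0405), each in 1 of 6 such fits. Cd300lb rose by 0.35 (adjusted p = 0.0292 from edgeR, 2 of 6 fits). Fcgr1 (log2 fold change −0.21, adjusted p = 0.0691 from edgeR), which was lower in every library with Cre, and Lilra6 (0.32, 0.0697), which was higher in every one, missed the threshold. DESeq2 called both, with 5 of the list lower and 2 higher against 12% of all genes. EdgeR called 7 lower and 2 higher with the offsets and 5 lower and 2 higher without both libraries that stood apart, against 18.8% and 26.2%, and Fcgr1 and Lilra6 were among these. The adaptor with the most counts, Fcer1g, had a log2 fold change of −0.03 (adjusted p = 0.793 from edgeR).

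Of 13 ligands of the member receptors tested, 5 were lower and 0 higher (median log2 fold change −0.31). Angptl2, a ligand of PIR-B, was higher in every library with Cre but not past the threshold (log2 fold change 0.25, adjusted p = 0.128 from edgeR), and Fn1 was at 0.21 (0.164). EdgeR called 7 lower and 2 higher (Angptl2 and Fn1) both with the offsets and without both libraries that stood apart, against 18.8% and 26.2% of all genes. Apoe, which has been described as a ligand of the human relative of Lilrb4a, had 119625, 163184 and 179360 normalized counts without Cre and 77902, 68830 and 89384 with it. Its groups did not overlap, and it fell by 0.97 on the log2 scale (adjusted p = 0.00340 from edgeR), in each leave-one-out fit.

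The complement genes C1qa, C1qb and C1qc, whose product C1q binds LAIR1, fell by 0.61, 0.55 and 0.60 (adjusted p = 0.0163, 0.0135 and 0.00859 from edgeR), in 3, 3 and 4 of 6 such fits. Npdc1, a ligand of Pilra, fell by 1.26 from few counts (34.3, 31.3 and 44.9 to 18.5, 12.4 and 14.7 normalized counts, adjusted p = 0.0448 from edgeR, 1 of 6 fits). Of the MHC class I genes, which encode ligands of PIR-B, the light chain B2m had a log2 fold change of 0.06 (adjusted p = 0.649 from edgeR), and the heavy chains H2-K1 and H2-D1 of −0.24 (0.133) and −0.25 (0.177). Both heavy chains were called lower without both libraries that stood apart, and H2-K1 also with the offsets.

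The next list held Src family kinases, which phosphorylate ITIMs, with Csk and its anchor Pag1, Syk and Btk. With all 6 libraries and no offsets, 0 of these 10 were past the threshold in edgeR or in DESeq2, 1 had an unadjusted p under 0.05, and the median log2 fold change was −0.01. With the offsets edgeR called 2 higher (Fgr and Src), and without both libraries that stood apart it called 1 higher (Fgr) and 1 lower (Csk), against 18.8% and 26.2% of all genes called in these fits. Lyn, the Src family kinase with the most counts, had a log2 fold change of −0.04 (95% interval −0.17 to 0.10) and Syk of 0.02 (−0.14 to 0.18).

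Of 12 other protein tyrosine phosphatases, 3 were higher and 0 lower (median log2 fold change 0.13). Ptpn18 was lower in every library with Cre but not past the threshold (log2 fold change −0.46, adjusted p = 0.0706 from edgeR). DESeq2 called it as well as the 3 that rose. With the offsets edgeR called 4 higher and 0 lower, and without both libraries that stood apart it called 5 higher and 2 lower (Ptpn18 among the 7). All genes were called at 12% in DESeq2 and at 18.8% and 26.2% in these edgeR fits. Ptpn22, a negative regulator of Src family kinases, had 6029, 5148 and 4807 normalized counts without Cre and 7854, 9005 and 7299 with it. The groups were separated, with a log2 fold change of 0.60 (adjusted p = 0.00709 from edgeR). Ptpre rose by 0.41 (adjusted p = 0.00366 from edgeR), also in each leave-one-out fit, and Ptpro by 0.29 (0.0274), in 2 of 6. The most counted, Ptprc (CD45; log2 fold change 0.11, adjusted p = 0.359 from edgeR) and Ptpn12 (0.16, adjusted p = 0.164), were not past the threshold.

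Of 8 other phosphoinositide phosphatases, 0 were past the threshold in edgeR or DESeq2 with all 6 libraries and no offsets, and 2 had an unadjusted p under 0.05. With the offsets 2 were called lower (Inpp4a and Inpp4b), and without both libraries that stood apart also 2 (Inpp4a and Inppl1), against the same 18.8% and 26.2% of all genes. Their median log2 fold change was −0.03, with Synj1 at −0.01 (95% interval −0.17 to 0.14). Of 10 adaptors that bind SHP-1, SHP-2 or SHIP-1, edgeR called 0 and DESeq2 1, Dok2 as lower, and 2 had an unadjusted p under 0.05 (median −0.09). EdgeR called 1 lower (Dok2) and 1 higher (Grb2) with the offsets and 3 lower (Dok1, Dok2 and Dok3) without both libraries that stood apart, against these same shares of all genes. The most counted were Fyb (log2 fold change −0.09, adjusted p = 0.397 from edgeR) and Grb2 (0.06, adjusted p = 0.579).

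Of PD-1 and its ligands, 0 of 3 were past the threshold in edgeR with all 6 libraries and no offsets. Cd274, which encodes PD-L1, was called higher in DESeq2, and in edgeR with the offsets and without both libraries that stood apart. It had 6890, 6639 and 6920 normalized counts without Cre and 7780, 8082 and 7874 with it. The groups did not overlap, and the log2 fold change was 0.22 (95% interval 0.09 to 0.34; adjusted p = 0.0531 from edgeR, unadjusted p under 0.05 for this 1 of the 3). Pdcd1lg2 had few counts and a log2 fold change of 0.25 (95% interval −0.27 to 0.77; adjusted p = 0.544 from edgeR).

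Markers of the labelled cell type and of others moved with some of these results. The summed level of 7 macrophage markers was 4493 to 4793 CPM without Cre and 4051 to 4107 with it. Of the 7, 3 (Mertk, Adgre1 and Csf1r) fell, against 3.01% of all genes tested. Cd68 (log2 fold change −0.06) and Ptprc (0.11) were not past the threshold. DESeq2, and edgeR with the offsets, called 4 lower, adding Fcgr1, against 12% and 18.8% of all genes. Without both libraries that stood apart edgeR called 5 lower, adding Itgam, against 26.2%. Neutrophils express Siglece, Lair1 and Pirb too, and 7 neutrophil markers summed to 139 to 143 and 116 to 119 CPM. Of these Csf3r (log2 fold change −0.51) and Mmp8 (−0.48) fell. Retnlg (−0.95, adjusted p = 0.110 from edgeR), S100a8 (0.23, 0.220), S100a9 (0.12, 0.412) and Cxcr2 (0.03, 0.938) were not past the threshold, though S100a8 was called higher with the offsets and without both libraries that stood apart. The sort excluded cells with Ly6G, the defining marker, whose gene Ly6g had at most 3 counts in any library. The part of either marker group in the lower values of Siglece, Lair1, Pirb, Fcgr2b and Inpp5d was not tested.

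B cells also express Fcgr2b, Cd22, Pirb and Ptpn6. Of 7 B cell markers 5 stayed under 10 counts in every library and Pax5, Cr2 and Fcer2a had none. Their sum was 3.57 to 4.45 CPM without Cre and 2.55 to 3.16 with it, nearly all from Cd79b (log2 fold change −0.52, adjusted p = 0.0670 from edgeR), which was lower in every library with Cre. The part of B cells in the values of these 4 genes was not tested. T cell (1.97 to 2.01 and 1.90 to 2.06), NK cell (4.72 to 5.61 and 4.95 to 6.24), dendritic cell (4.71 to 6.39 and 6.04 to 7.66) and mast cell markers (4.03 to 4.35 and 3.63 to 5.77) were at similarly low sums. With all 6 libraries and no offsets, 0 markers of these 5 cell types were past the threshold in edgeR or DESeq2, and 3 had an unadjusted p under 0.05, 1 of B cells and 2 of dendritic cells. Zbtb46, a dendritic cell marker, was called higher with the offsets and without both libraries that stood apart, and Cd79b lower without these libraries. Tumor and stroma markers summed to 68.6 to 74.6 and 64.5 to 71.2 CPM. Of 7 tested, 2 (Col1a2 and Fap) were lower, against 3.01% of all genes tested. DESeq2 and the offsets also called these 2. Without both libraries that stood apart 3 were lower, adding Col1a1, against 26.2% of all genes called. Lum, with too few counts to be tested, had 0, 4 and 0 counts without Cre and 13, 17 and 8 with it.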

How the data were processed

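The members and gene lists were chosen with earlier results of these data known. By the submitters' processing notes, the authors made the counts with Cutadapt 2.5, STAR 2.7.3a (GRCm38) and featureCounts (Subread 1.6.2), on Ensembl 98 genes by the study's methods, from stranded polyA libraries read as paired 42-nt ends. The strand setting and handling of multi-mapped reads are not given in the sources used here. They also deposited normalized counts, a signal equal to raw counts divided by 1 DESeq2 1.24.0 size factor per library. Normalized counts printed here are the authors' values.

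From the raw counts, edgeR 4.0.16 (R 4.3.3) was run with filterByExpr (minimum count 10, total 15), TMM, robust glmQLFit and the two-sided glmQLFTest, with Benjamini-Hochberg adjustment over 14469 genes and a threshold of 0.05. Standard errors and 95% intervals came from the F statistic. The named genes were all members, Pdcd1, Lyz2, and from each other list the genes past the threshold (at most 8) and the 2 with the most normalized counts, of which 1 is not reported here. Other genes named from the lists were chosen after their values were seen. Symbols, exon lengths, GC content and sequences came from GENCODE M21 (GRCm38), in which 7 listed symbols (Pira1, Pira6, Pira7, Pira11, Pira12, Lilrb4b and Cd99) were not matched. ITIM stretches were searched after the last window of 19 residues with a mean Kyte-Doolittle hydropathy of at least 1.6. Protein sequences were not used here. Tested on simulated data for this comparison (14226 genes), the fit recovered 9 of 50 genes changed 1.25-fold, 27 of 50 changed 1.5-fold, 38 of 50 changed 2-fold and 47 of 50 changed 4-fold. Replicates of a genotype differed by more than counting noise (chi-square per gene 5.55 to 43.5), so none was treated as a duplicate of another library. Alternatives were RLE factors, library size alone, other filters, DESeq2 1.42.0, limma 3.58.1 (log2 of normalized count plus 1), a replicate block, GC and length offsets, a minimum fold of 1.2, a threshold of 0.01, each library left out and, chosen after seeing the data, both libraries that stood apart left out.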

Additional observations from a re-analysis of the deposited data

How the results depend on the processing

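With all 6 libraries, 786 genes, 1 of the 10 members and 20 listed genes were past the threshold. These counts were 1951, 3 and 29 with no filter beyond 1 count, 1517, 4 and 25 with DESeq2, 2713, 5 and 39 with GC content and length offsets, 193, 0 and 4 for a fold change above 1.2, 283, 0 and 11 at an adjusted p of 0.01, and 3757, 7 and 41 without both libraries that stood apart. With each library left out they ranged from 222 to 3181, 0 to 4 and 8 to 37, highest without Pdcd1f/f replicate 1. The replicate block gave 1027, 1 and 22, and 2823, 5 and 39 with the offsets. Same-numbered deviations correlated at −0.08, −0.32 and 0.57. These mixed values cannot decide whether the replicate numbers pair the libraries.

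Siglece had a log2 fold change of −0.71 and lost its call for a fold change above 1.2. Without both libraries that stood apart Siglece was −0.69 (adjusted p = 0.000223 from edgeR), and Pilra was −0.01 and not past the threshold. Members gained calls as follows on the log2 scale. Lair1 was −0.23 with no filter and with DESeq2, −0.31 with the offsets with or without the replicate block, and −0.26 without both libraries. Fcgr2b was −0.19 with DESeq2, −0.25 with the offsets with or without the block, and −0.21 without both libraries. Inpp5d was −0.22 with no filter and DESeq2, −0.14 with the offsets, −0.15 when the block was added, and −0.23 without both libraries. Pirb was −0.18 with the offsets with or without the block and −0.20 without both libraries. Ptpn6 was −0.16 and Lilrb4a 0.22 without both libraries. Without Pdcd1f/f replicate 1, Inpp5d (−0.27), Pirb (−0.21) and Lilrb4a (0.27) gained calls. With each library left out, the ranges were −0.82 to −0.58 for Siglece, −0.29 to −0.20 for Lair1, −0.23 to −0.17 for Fcgr2b, −0.27 to −0.19 for Inpp5d, −0.21 to −0.15 for Pirb, −0.21 to −0.05 for Ptpn6, 0.10 to 0.27 for Lilrb4a, −0.10 to −0.02 for Sirpa, 0.00 to 0.07 for Pilra and −0.03 to 0.01 for Ptpn11. With the offsets the log2 difference of the ratio was 0.17 for Fcgr2b to Fcgr3 and 0.29 for Sirpa to Sirpb1a, Sirpb1b and Sirpb1c, and −0.02 against −0.11 for Ptpn6 to Ptpn11. With each library left out Ptpn6 to Ptpn11 ranged from −0.18 (without Pdcd1f/f replicate 1) to −0.06 (without Pdcd1f/f replicate 3) and Pilra to Pilrb1 from −0.23 (without Pdcd1f/f replicate 2) to −0.08 (without Pdcd1f/f replicate 1). Sirpa to its Sirpb1 relatives ranged from 0.05 (without Pdcd1f/fLysMcre replicate 3) to 0.14 (without Pdcd1f/fLysMcre replicate 2). Without both libraries that stood apart the differences were −0.15 for Ptpn6 to Ptpn11, −0.08 for Pilra to Pilrb1 and −0.32 for Pirb to Pira2. They were 0.26 for Fcgr2b to Fcgr3 and 0.11 for Sirpa to its Sirpb1 relatives. The cause was not tested.

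Few counts stood behind Pdcd1, Npdc1 and Cd5.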
